A study of Homo sapiens with 4 samples.

Results

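GATA3 occupancy was examined at 10 genes that carry or restrain canonical WNT signalling: the DNA-binding effectors LEF1, TCF7, TCF7L1 and TCF7L2, the target and feedback genes AXIN2 and SP5, the secreted inhibitors DKK1 and SFRP1, the receptor LGR5 and its ligand RSPO3. The cells were H1, an established human embryonic stem cell (hESC) line. All had been grown in mTeSR1 medium and exposed to BMP4 (50 ng/ml) during 6 h. Chromatin bound by a GATA3 antibody was then sequenced in 2 biological replicates, each with its own input chromatin. Input entered only through the authors' peak calling, and no untreated GATA3 ChIP was analysed here, so the positions below describe stimulated cells and no response to BMP4. As a model, the data stand for 1 cell line. A position was assigned to a gene if it lay no more than 100 kb from the 5′ end in hg38, inside the gene body, or carried the gene's symbol in the deposited list. A shared region was a pair of positions, 1 per replicate, separated by at most 100 bp. By this rule the 10 genes held 30 of 18456 positions in replicate 1 and 22 of 12782 in replicate 2, and 16 of the 9145 shared regions on the chromosomes. The genes were taken from knowledge of the pathway and not from their binding, but with earlier results of these data known.

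When a WNT ligand engages its receptors, the destruction complex that degrades β-catenin is stalled, and β-catenin accumulates and enters the nucleus. There it binds LEF1 and the TCF proteins, which sit on their recognition sequence and otherwise recruit corepressors. The pathway induces several of its own brakes, AXIN2 among them, and in hESC it works together with BMP signals in the exit from pluripotency towards mesoderm.

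The shared regions are shown first by sequence, beginning with the 6 of 16 that held letters of the TCF/LEF motif. A match describes the sequence and does not show that a factor bound there. Distances are from the 5′ end, negative where upstream. Capitals mark 2 kinds of motif, searched on both strands. GATA letters are AGATAA with its variants AGATAG and also TGATAA or else TGATAG, so that a reverse match ends in TATCT or TATCA. TCF/LEF letters are CTTTGAT or, as the variant, CTTTGAA, with the reverse matches ATCAAAG and likewise TTCAAAG. All are hg38, plus strand, 200 bp around the centre of the region.

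TCF7L2 region at +4.977 kb, chr10:112955125-112955324: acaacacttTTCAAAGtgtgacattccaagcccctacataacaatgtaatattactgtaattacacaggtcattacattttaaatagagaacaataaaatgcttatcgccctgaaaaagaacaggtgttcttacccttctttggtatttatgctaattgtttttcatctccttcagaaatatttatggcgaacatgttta

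TCF7L2 region at +77.18 kb, chr10:113027329-113027528: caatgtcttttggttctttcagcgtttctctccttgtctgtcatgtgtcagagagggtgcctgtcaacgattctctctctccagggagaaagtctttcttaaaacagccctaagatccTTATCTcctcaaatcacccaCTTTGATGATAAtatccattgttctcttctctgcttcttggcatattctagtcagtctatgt

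AXIN2 region at +2.816 kb, chr17:65558733-65558932: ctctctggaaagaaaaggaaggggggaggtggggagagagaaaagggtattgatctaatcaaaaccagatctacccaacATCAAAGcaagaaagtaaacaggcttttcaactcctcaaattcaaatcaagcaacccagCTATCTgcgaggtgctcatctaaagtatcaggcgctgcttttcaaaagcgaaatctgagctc

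AXIN2 region at -31.97 kb, chr17:65593519-65593718: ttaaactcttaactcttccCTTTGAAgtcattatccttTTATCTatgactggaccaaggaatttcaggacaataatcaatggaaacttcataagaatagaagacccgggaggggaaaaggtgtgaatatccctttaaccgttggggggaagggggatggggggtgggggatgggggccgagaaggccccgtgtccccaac

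SP5 region at -0.396 kb, chr2:170714842-170715041: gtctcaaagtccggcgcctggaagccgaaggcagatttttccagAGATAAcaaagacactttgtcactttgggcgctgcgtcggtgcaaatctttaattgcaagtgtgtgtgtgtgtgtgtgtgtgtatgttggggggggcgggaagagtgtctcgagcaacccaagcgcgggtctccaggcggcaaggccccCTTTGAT

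LGR5 region at +1.184 kb, chr12:71440883-71441082: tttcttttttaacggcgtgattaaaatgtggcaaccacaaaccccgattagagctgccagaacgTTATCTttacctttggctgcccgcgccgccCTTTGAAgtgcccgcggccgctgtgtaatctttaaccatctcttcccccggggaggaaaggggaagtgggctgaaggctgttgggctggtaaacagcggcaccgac

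At TCF7L2, +77.2 kb, the TCF/LEF letters and the second GATA motif shared 1 base, with 5.5 bp between their centres. At AXIN2, -31.97 kb, they were 18.5 bp apart, at LGR5 30.5 bp, at AXIN2, +2.82 kb, 58.5 bp and at SP5 149.5 bp. The TCF7L2 region at +4.98 kb held TCF/LEF letters 87 bp from its centre and no GATA motif in this window. In LGR5 the TCF/LEF letters lay 2 bp from the centre, nearer than the GATA motif. In SP5 they lay 97 bp from it, at the edge of the window.

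The next sequences, 120 bp each, show regions with GATA letters and without TCF/LEF letters at the effector LEF1, at AXIN2 and upstream of RSPO3. Other motifs are not in capitals. LEF1 is shown for its 3 GATA motifs, the most of any of the 16 regions, and AXIN2 at -48.8 kb for a motif 1 bp from the centre.

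LEF1 region at +51.04 kb, chr4:108117852-108117971: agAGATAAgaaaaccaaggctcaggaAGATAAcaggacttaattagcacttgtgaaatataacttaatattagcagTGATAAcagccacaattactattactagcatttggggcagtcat

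AXIN2 region at -11.25 kb, chr17:65572837-65572956: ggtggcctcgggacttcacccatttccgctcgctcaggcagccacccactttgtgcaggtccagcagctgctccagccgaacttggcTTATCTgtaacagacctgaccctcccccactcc

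AXIN2 region at -48.8 kb, chr17:65610384-65610503: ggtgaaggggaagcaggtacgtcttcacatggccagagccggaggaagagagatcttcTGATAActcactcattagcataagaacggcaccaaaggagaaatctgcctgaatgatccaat

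RSPO3 region at -92.25 kb, chr6:127026364-127026483: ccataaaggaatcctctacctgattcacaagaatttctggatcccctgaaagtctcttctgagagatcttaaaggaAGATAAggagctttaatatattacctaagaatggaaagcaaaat

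Shared GATA3 regions were found at 8 of the 10 genes, and TCF7 and DKK1 were without any position in either replicate. Of 20033 protein-coding genes, 47.7% had at least 1 shared region by the same rule, and 27.4% had no position of either replicate. AXIN2 and TCF7L2 each held 4 shared regions, a number reached by 2.10% of protein-coding genes. At least 2 were found at 4 of the 10 genes, the others being TCF7L1 and RSPO3, against 17.3% of protein-coding genes. LEF1, SP5, LGR5 and SFRP1 each had 1. Long gene bodies added to these counts. Within 100 kb of the 5′ end without the body, TCF7L2 had 2 regions, TCF7L1 had 0 and AXIN2 kept 4. The shares of protein-coding genes were not computed that way. Because gene windows differ in length (200 kb at AXIN2 and 317.4 kb at TCF7L2), the number was also expressed per sequence searched. The windows of the 10 genes covered 2.26 Mb and held 15 of the 16 regions, or 6.63 per Mb (95% exact Poisson interval 3.71 to 10.9). Windows of all protein-coding genes held 3.40 regions per Mb and the chromosomes as a whole 3.11 per Mb. By gene, the density was highest at AXIN2 (2.0 per 100 kb) and TCF7L2 (1.26 per 100 kb). In the other genes with a region it ran from 0.406 at LGR5 to 0.722 at TCF7L1, and it was 0 at TCF7 and DKK1. These shares and densities are a description of a chosen set of genes, and the Poisson interval covers counting error only.

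**Figure D1:**
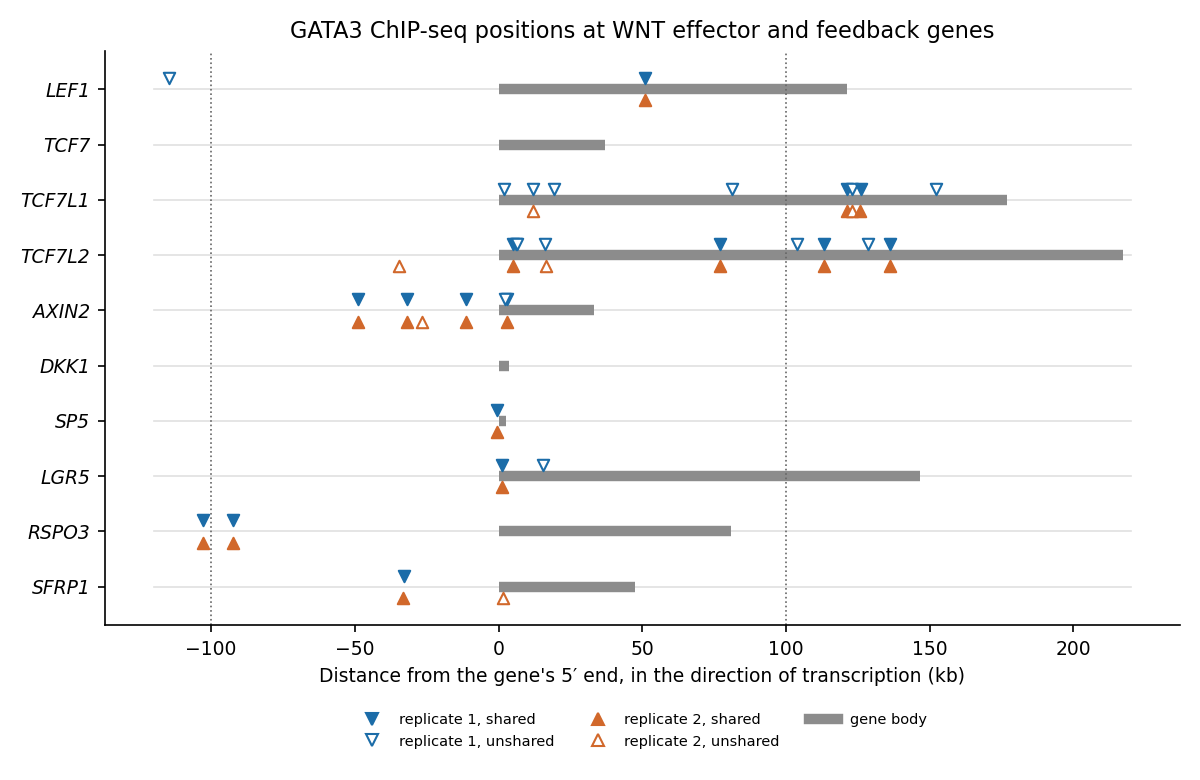
GATA3 positions at each of the 10 genes, plotted by their distance in kb from the gene's 5′ end along the direction of transcription, with the gene body as a grey bar. Triangles above each line are replicate 1 and those below are replicate 2, filled where the replicates lie within 100 bp of each other, and dotted lines mark 100 kb. AXIN2 carries 3 filled pairs upstream and 1 inside the gene, all 4 pairs of TCF7L2 lie inside the gene, and TCF7 and DKK1 have none.

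The nuclear effectors differed among themselves. TCF7L2, which can activate or repress its targets depending on its partner, had the most positions, 9 in replicate 1 and 6 in replicate 2. All 4 shared regions lay in introns of the gene (chr10:112950247-113167678, plus strand). The first, at 112955235 in replicate 1 and 112955213 in replicate 2, was in intron 3, +4.98 kb from the 5′ end. A region in intron 4 was at 113027424 and 113027433 (+77.2 kb). Intron 5 held the remaining pair, at 113063648 and 113063593 (+113 kb) and at 113086466 and 113086505 (+136 kb). The 4 regions were thus spread over 131 kb of the gene rather than gathered at its start. Replicate 1 had 5 further positions and replicate 2 had 2 without a partner within 100 bp. One pair in intron 4, at +16.1 kb in replicate 1 and +16.4 kb in replicate 2, missed the limit with 222 bp between the positions. The authors' list gave none of these positions the symbol TCF7L2, and gave clone-based names instead.

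TCF7L1, known in embryonic stem cells chiefly as a repressor of pluripotency genes, had 8 positions in replicate 1, 4 in replicate 2 and 2 shared regions. Its shared regions in the gene (chr2:85133392-85310387, plus strand) lay 4.70 kb apart in intron 3, at 85254715 and 85254756 (+121 kb) and at 85259372 and 85259335 (+126 kb). The authors named the positions of both regions AC093162.3. Near the 5′ end the replicates did not coincide. Replicate 1 had positions at +1.905, +11.9 and +19.3 kb, all named TCF7L1 by the authors, and replicate 2 had only 1 there, at +12.1 kb, 177 bp from its neighbour in replicate 1. Another pair, at +123 kb, was 135.5 bp apart. With a limit of 250 bp TCF7L1 would have 4 shared regions in place of 2. The 5′ end nearest to both of its shared regions was not its own but that of TGOLN2, 73.5 and 68.9 kb away.

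LEF1 (chr4:108047545-108168956, minus strand) is an effector that mostly activates. Its single shared region lay in intron 3, at 108117956 in replicate 1 and 108117867 in replicate 2, +51.0 kb from the 5′ end. The authors named both positions LEF1-AS1. The positions were 89 bp apart, the widest separation among the 16 regions, so that LEF1 lost its region when the limit was set to 50 bp. Replicate 1 alone had a position named LEF1 by the authors at -114.7 kb, outside the 100 kb window. The fourth effector, TCF7 (chromosome 5, 134114681 to 134151865), had its nearest position at +125.6 kb in replicate 1 and +125.7 kb in replicate 2, beyond the far end of the gene.

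AXIN2 encodes a scaffold of the destruction complex and is among the most general transcriptional targets of the pathway. Both replicates listed 5 positions at the gene (chr17:65528563-65561648, minus strand), of which 4 coincided. A region in intron 1 was at 65558834 in replicate 1 and 65558831 in replicate 2 (+2.82 kb), 3 bp apart and 0.1035 kb from the annotated start of an AXIN2 transcript that begins inside the gene. The other regions were upstream, at 65572879 and 65572913 (-11.25 kb), at 65593658 and 65593578 (-31.97 kb) and at 65610469 and 65610418 (-48.8 kb). Together they covered 51.6 kb. The 5′ end nearest to the first 3 was that of AXIN2. The farthest was nearer to that of ENSG00000266076, an unnamed protein-coding gene model on the same strand that overlaps all 4 regions. In the deposited lists the positions of this farthest region carried the name CTD-2535L24.2, and those of the other shared regions the name AXIN2. Only replicate 1 had a position at +2.40 kb and only replicate 2 one at -26.6 kb.

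SP5 is a zinc finger transcription factor induced by WNT in pluripotent cells. The gene (chr2:170715337-170718078, plus strand) had 1 position per replicate, at 170714946 and 170714936, 10 bp apart and -0.396 kb from the 5′ end. It was the only one of the 10 genes with a shared region within 1 kb, as had 2.42% of protein-coding genes. The lncRNA gene ERICH2-DT, on the minus strand, covers the same sequence. Within 10 kb there was a shared region at 4 of the 10 genes, namely SP5, LGR5, AXIN2 and TCF7L2, against 8.69% of protein-coding genes. Within 50 kb the number was 5, with SFRP1 added, against 27.2%. LEF1 fell just beyond that distance.

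LGR5 and RSPO3 act on the receptor side: R-spondins bound to LGR receptors protect the WNT receptors from removal at the cell surface. LGR5 (chromosome 12, 71439798 to 71586310, plus strand) had its shared region in intron 1, at 71440999 and 71440965, +1.18 kb from the 5′ end. This sequence also lies inside the annotated span of TSPAN8 on the opposite strand, whose outermost start was 0.916 kb away. The authors named both positions TSPAN8. Replicate 1 had a second position at +15.5 kb. RSPO3 (chromosome 6, 127118671 to 127199481, plus strand) had no position near its start or in its body. Its 2 shared regions were far upstream. One was at 127026427 and 127026420 (-92.25 kb), 7 bp apart. The other lay just outside the window and was the only one of the 16 counted through its deposited gene name. RSPO3 had no unshared position.

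**Figure D2:**
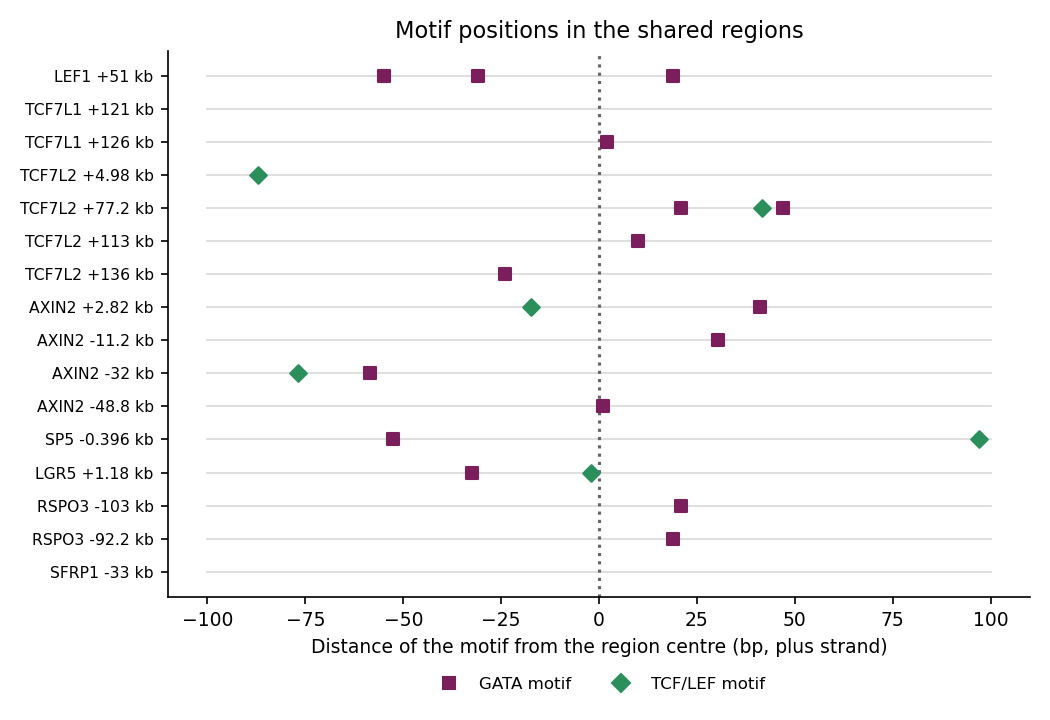
Places of GATA motifs (squares) and TCF/LEF motifs (diamonds) in 200 bp of each of the 16 shared regions, in bp from the region centre on the plus strand, with rows named by gene and distance from its 5′ end. GATA motifs are in 13 rows and TCF/LEF motifs in 6, and the rows of TCF7L1 at +121 kb and SFRP1 hold neither.

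GATA motifs were in 13 of the 16 regions (81.2%, 95% Wilson interval 57.0 to 93.4) and in 82.0% of the 9129 other shared regions, a difference that was not detectable (two-sided Fisher's exact p 1.0). The nearest motif was a median of 21 bp from the centre. Without any were TCF7L1 at +121 kb, TCF7L2 at +4.98 kb and SFRP1. At SFRP1 a 200 bp window around the replicate 1 position did hold 1, 92.5 bp from that position. At least 2 GATA motifs were in 2 regions, LEF1 and TCF7L2 at +77.2 kb, against 34.6% of the other shared regions. Positions with and without a partner were also counted separately. In replicate 1, 14 of 16 shared and 5 of 14 unshared positions had a GATA motif within the window, against 81.7% and 73.0% elsewhere. In replicate 2 the numbers were 13 of 16 and 4 of 6, against 81.7% and 67.0% elsewhere. These differences between shared and unshared positions at the 10 genes were not tested. The unshared positions of replicate 1 without a GATA motif were at TCF7L1 and TCF7L2, apart from that of LGR5 at +15.5 kb.

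TCF/LEF letters were in 6 of the 16 regions (37.5%, 95% Wilson interval 18.5 to 61.4) and in 11.8% of the other shared regions. The odds ratio was 4.50 (two-sided Fisher's exact p 0.00755), and with Benjamini-Hochberg adjustment over the 7 motifs compared the p was 0.0528, so the difference did not pass the threshold of 0.05. The 6 regions belong to 4 genes, AXIN2, TCF7L2, SP5 and LGR5, and regions of 1 gene are not independent. The share depended on how far from the centre the letters were sought. In 100 bp windows it was 18.8% against 6.49% (Fisher's exact adjusted p 0.570), and in 400 bp windows 56.2% against 20.6% (adjusted p 0.0130). Around the positions of replicate 1 alone it was 13.3% against 10.95% (Fisher's exact adjusted p 1.0), and around those of replicate 2 alone 22.7% against 11.3% (adjusted p 0.670).

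The other 5 motifs compared had adjusted p-values of 1.0 by the same test. The SMAD letters GTCTG were in 5 of the 16 regions and 36.1% of the others. TEAD letters, GGAATG, were in 2 and in 18.9%, and SOX letters, ACAAAGG with the variant ACAATGG, in 2 and in 13.3%. AP-1 letters, TGACTCA with the variant TGAGTCA, were in 1 region and in 5.64%. The octamer ATGCAAAT was in 0 of 16 regions (upper limit of the 95% Wilson interval 19.4%) and in 5.10% of the others. With 16 regions only large differences could be seen. The letters CTTTGAT can share bases with GATA letters next to them, as with TGATAA at TCF7L2. No motif of the panel lies wholly inside another.

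**Figure D3:**
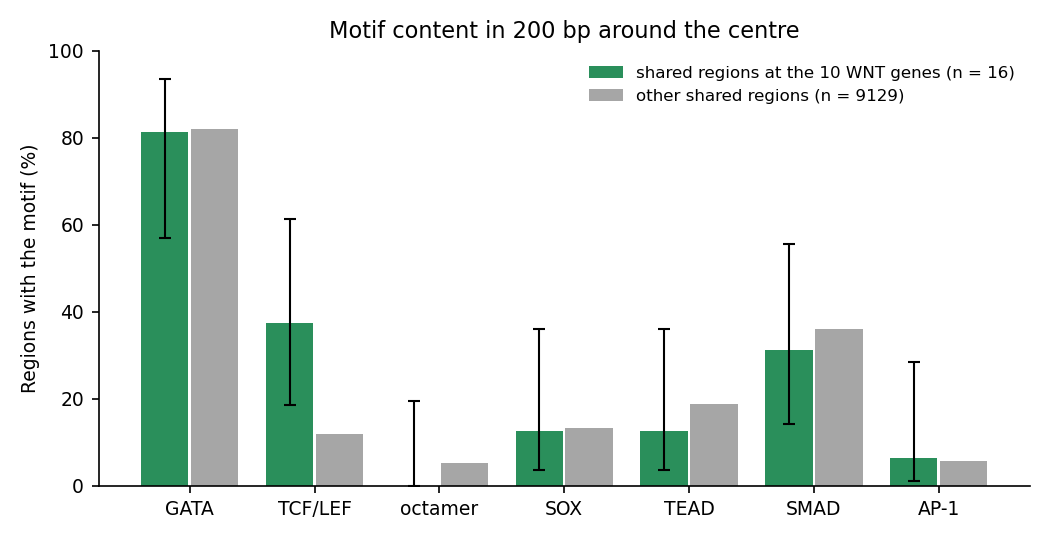
Percentage of shared regions with each of 7 motifs in 200 bp around the centre, for the 16 regions at the 10 WNT genes (green, with 95% Wilson intervals) and the 9129 other shared regions (grey). The bars differ most for TCF/LEF, 37.5% against 11.8%, and are nearly level for GATA, 81.2% against 82.0%.

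The secreted inhibitors differed from each other. SFRP1, which binds WNT ligands outside the cell, lies on the minus strand of chromosome 8 (41261962 to 41309473). Its shared region was upstream, at 41342473 in replicate 1 and 41342561 in replicate 2 (-33.0 kb), with 88 bp between the positions, so that it was lost at a limit of 50 bp. Replicate 2 alone had a position in intron 1, at +1.66 kb. DKK1, which blocks the WNT coreceptors (chromosome 10, 52314281 to 52318042), had its nearest position at -232.5 kb in replicate 1 and -208.7 kb in replicate 2, both named PRKG1-AS1 by the authors. A peak list holds only what passed the caller, and gives no limit on weaker binding at TCF7 or DKK1.

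Taking the 16 regions as a set, 9 lay in introns, 7 upstream of the 5′ end and 0 in exons. All 9 intronic regions and none of the others were downstream of the 5′ end. Of the 16, 4 were within 10 kb of the 5′ end and 5 more than 100 kb away, 4 of these inside the long genes TCF7L1 and TCF7L2. The nearest protein-coding 5′ end was that of the assigned gene for 12 regions, the exceptions being both regions of TCF7L1, that of LGR5 and the farthest of AXIN2. The authors' gene name was the assigned gene in both replicates for 7 of the 16, and none of these 7 was at TCF7L1, TCF7L2, LEF1 or LGR5.

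**Figure D4:**
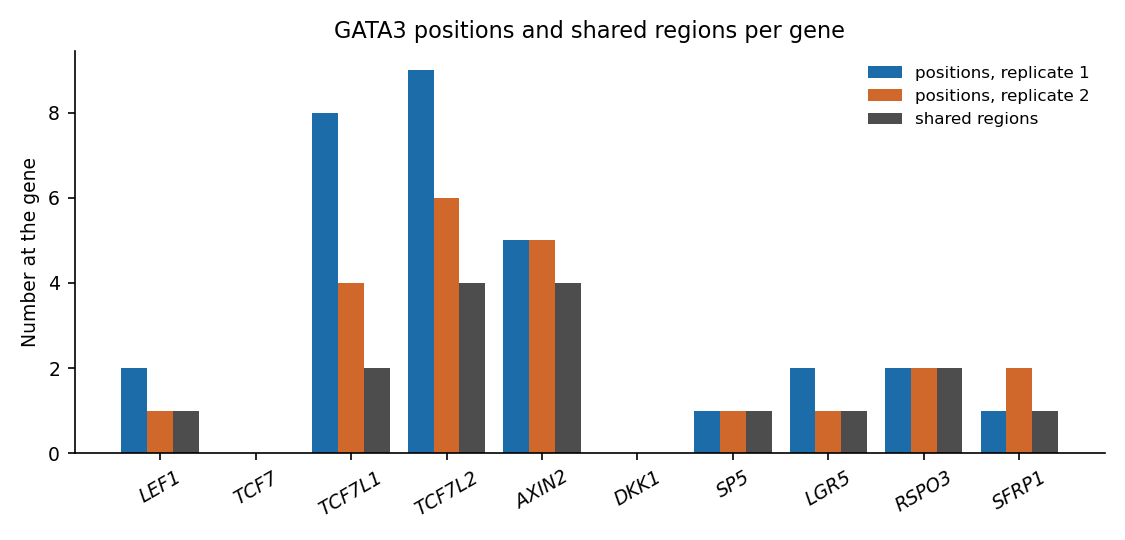
Number of GATA3 positions at each of the 10 genes in replicate 1 (blue) and replicate 2 (orange), and of shared regions (grey). Counts run from 0 to 9 in replicate 1 and from 0 to 6 in replicate 2, and the replicates differ most at TCF7L1 and TCF7L2.

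Every gene with a position in replicate 1 also had one in replicate 2. At AXIN2, SP5 and RSPO3 the numbers were equal, at LEF1, LGR5, TCF7L1 and TCF7L2 replicate 1 had more, and at SFRP1 replicate 2 had more. Of the positions of replicate 1 at the 10 genes 53.3% were shared (95% Wilson interval 36.1 to 69.8), against 49.5% elsewhere (two-sided Fisher's exact p 0.718). In replicate 2 the share was 72.7% (51.9 to 86.9) against 71.5% (p 1.0). Neither difference was detectable with 30 and 22 positions. In the shared regions the replicates were a median of 35.5 bp apart (range 3 to 89), and 23 bp in the other shared regions. Of the 16 separations 11 were at most 50 bp. Just inside the 100 bp limit were SFRP1 and LEF1 with 88 and 89 bp, and just outside it were the pairs of TCF7L1 with 135.5 and 177 bp.

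**Figure D5:**
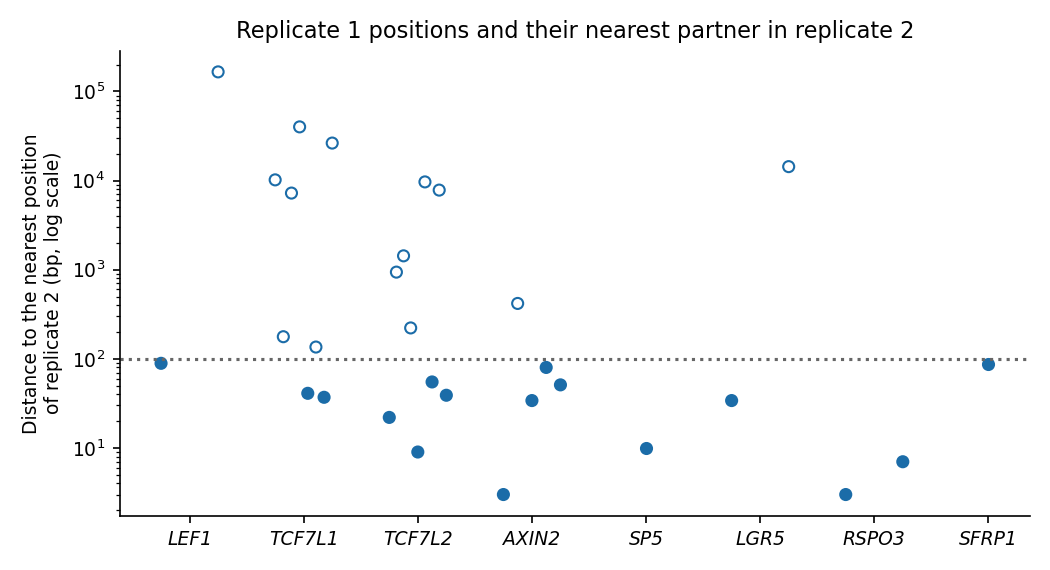
Distance in bp (log scale) from each replicate 1 position at the 10 genes to the nearest position of replicate 2, grouped by gene, with the 100 bp limit dotted. Filled points are shared and lie between 3 and 89 bp, and of the 14 open points 4 lie between 135.5 and 418 bp.

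The 10 genes were set beside 54 other genes of the pathway, from receptors to nuclear factors, of which 33 (61.1%) had a shared region against the 47.7% of protein-coding genes. By role, a region was found at 9 of 14 receptors and coreceptors, 2 of 3 further R-spondins, 3 of 9 secreted inhibitors and 4 of 5 membrane feedback inhibitors. It was also found at 7 of 10 genes of the cytoplasmic relay, 6 of 11 nuclear factors and both genes of ligand secretion. The nuclear group held the β-catenin gene CTNNB1 and SP8 besides cofactors and corepressors. The most at any of them was 3, at FZD2, FZD4, FZD6 and FZD7, which encode WNT receptors, at RSPO4, at the inhibitor FRZB, at SP8, a relative of SP5, and at the corepressor TLE3. Of the 54, only FRZB (0.197 kb), SP8 (0.3605 kb), RSPO2 (0.687 kb) and DVL3 (0.935 kb) had a region within 1 kb of the 5′ end. Of all protein-coding genes 2.42% had one. Among the 19 WNT ligand genes 12 (63.2%) had a shared region. Windows of neighbouring genes can overlap, and a region was then counted at each gene, so these are not counts of separate regions. Whether these groups differ from the 10 genes was not tested.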

How the data were processed

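GATA3 ChIP-seq positions of 2 replicates of H1 hESC were analysed. Per the study's methods, the authors trimmed reads with cutadapt, aligned them with bowtie to the hg38 build, discarded duplicates (Picard), left out multiply mapped reads and blacklisted regions, and called peaks with MACS2 in each replicate against its input. The deposited lists hold 1 position per peak with a gene name, and no width, height or q-value. Positions are printed as deposited. How a peak was reduced to its position, and whether bases were counted from 0 or 1, was not given in the sources used here. Some positions are not whole bases. Separations, region centres and motif distances refer to these points, which need not be summits. The lists differ in length, in both directions, from the peak sets described in the methods, for a reason not given there. Neither depth nor peak strength could be derived.

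Genes and 5′ ends were taken from GENCODE release 44. Motifs were searched in 200 bp of hg38 around the mean of the replicate positions. Two-sided Fisher's exact tests compared positions or regions at the 10 genes with all others, and Wilson and exact Poisson intervals are at 95%. Positions and regions are not replicates of a condition, and these p-values and intervals cover counting error only. The pairing and comparison steps were tested on simulated data. All 10 genes are named. Of the 54 other pathway genes, those with the most shared regions (8 tied, where 4 had been planned) and those with one within 1 kb are named. The sequence and position of 1 region are not reported here. The genes and lists were chosen with earlier results of these data known. Python 3.11.15, numpy 2.4.6, scipy 1.17.1, pandas 2.3.3, statsmodels 0.14.6 and pysam 0.24.0 were used.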

Additional observations from a re-analysis of the deposited data

How the results depend on the processing

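Shared regions were found at 6 to 8 of the 10 genes under all alternatives, with the fewest at a replicate limit of 50 bp, where LEF1 and SFRP1 had none and AXIN2 had 2. Their number ran from 11 at 50 bp to 19 at 250 and 500 bp, and using the positions of 1 replicate alone gave 22 (replicate 2) to 30 (replicate 1). Within 100 kb without the gene body there were 12 regions at 7 genes, with none at TCF7L1 and 2 at TCF7L2. Counting only regions whose nearest protein-coding 5′ end is that of the gene gave 17 regions at 7 genes, with none at TCF7L1 and LGR5 and 2 at DKK1. Among the other pathway genes, 18 had a region within 10 kb or in the body and 21 by the nearest 5′ end. The share of all protein-coding genes with a region was computed only by the original rule (47.7%). That share can change with each alternative, so the gene counts under the alternatives cannot be set against it.

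The comparisons of replicate sharing passed no threshold under any alternative, and at 50 bp their direction turned, with 36.7% of replicate 1 positions (40.1% elsewhere) and 50.0% of replicate 2 positions (57.9% elsewhere). For AGATAA alone the GATA share was 62.5%, above the 51.6% of other regions (adjusted p 1.0). Around the positions of replicate 1 alone it was lower than elsewhere, 63.3% against 77.3% (Fisher's exact adjusted p 0.561). Every replicate 1 position without a GATA motif was at TCF7L1, TCF7L2 or LGR5. The TCF/LEF share passed the threshold in 400 bp windows (56.25%) and, at 37.5%, against only the shared regions in gene windows (11.0%, Fisher's exact adjusted p 0.0380). With CTTTGTA and also CTTTGTT allowed, which overlap the SOX core, it was 43.8% against 22.7% (adjusted p 0.466). The causes were not tested. No paired analysis was possible because no test compared ChIP with input, whose files were not analysed here. Peak strength and depth limit every count, since neither is in the lists.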
